A study of Mus musculus with 24 samples.

Results

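The comparison set 3 mouse brain tumours that received the immunotoxin D2C7-IT alone against 3 that received the CD40 antibody aCD40 alone, all taken on the day the infusion ended (day 0), out of 24 tumours in the series. Members were chosen by their labels only, and every gene was examined. CT-vIII cells, which are CT-2A mouse glioma cells transduced with mouse EGFR variant III and firefly luciferase, had been implanted in the right brain hemisphere of every mouse. From day 6 to day 9 after implantation an osmotic pump infused the treatment into the brain at 0.5 µl/h for 72 h. The pump carried 0.2 µg of D2C7-IT, 10 to 300 µg of aCD40, both agents, or, in vehicle tumours, 100 µg of a rat control antibody in buffered saline with 2% albumin. Which aCD40 dose a given tumour received, and the strain, sex and age of the mice, are not stated in the labels, and aCD40 values may mix doses. CT-vIII is a single transduced line. The combination and vehicle tumours of day 0, 3 each, are quoted beside the 2 single agents. Whole tissue was sequenced, so fewer cells of a type and less RNA per cell cannot be told apart. Levels are CPM, counts scaled to the size of the library with TMM factors, given for replicates 1, 2 and 3 in that order, and fold changes are log2 ± SE of D2C7-IT over aCD40 from edgeR unless another pair is named.

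D2C7-IT joins an antibody fragment that binds EGFR and its variant III to a part of Pseudomonas exotoxin. Inside a cell the toxin modifies diphthamide, a residue on the elongation factor encoded by Eef2, and protein synthesis stops. CD40 is a receptor of dendritic cells, macrophages, B cells and some vessel cells; antibodies that engage it act through NF-kB, a family of transcription factors that switches on chemokines, cytokines and adhesion molecules, and drive the maturation of antigen-presenting cells. Chemokines of the CXC and CC families then draw neutrophils, monocytes and lymphocytes into a tissue.

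The stretches before the starts of 4 chemokine and cytokine genes known as NF-kB targets are shown because these genes lay on opposite sides of the comparison. Cxcl1, Cxcl2 and Il6 stood higher in D2C7-IT tumours, and Ccl22 stood higher in aCD40 tumours. Capitals mark the letters of an NF-kB site, GGGA then any 4 bases then CC, on either strand. Sequences are from RefSeq on GRCm38.p6, plus strand, 5′ to 3′, from 150 bases before the start, and end before the first base that the annotation gives to the gene.
Cxcl1, chr5:90891095-90891214: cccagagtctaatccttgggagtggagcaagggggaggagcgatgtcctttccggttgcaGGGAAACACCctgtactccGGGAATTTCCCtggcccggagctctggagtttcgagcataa
Cxcl2, chr5:90903749-90903868: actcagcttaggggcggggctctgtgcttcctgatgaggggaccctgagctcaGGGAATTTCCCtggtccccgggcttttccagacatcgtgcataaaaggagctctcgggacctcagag
Il6, chr5:30012964-30013083: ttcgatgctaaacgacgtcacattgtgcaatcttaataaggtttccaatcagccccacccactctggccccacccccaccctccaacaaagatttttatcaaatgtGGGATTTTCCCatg
Ccl22, chr8:94745534-94745589: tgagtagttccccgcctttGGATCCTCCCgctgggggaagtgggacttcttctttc
Cxcl1 held 3 matches, of which some overlap, Cxcl2 and Il6 held 2 overlapping matches each, and Ccl22 held 1. The letters were present on both sides of the comparison. Of 32851 promoters in the RefSeq table, 17.6% held them within 250 bases before the start, so a match describes these letters and shows no binding.

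The 6 libraries held 31.8 to 47.8 M counts and the 12 of day 0 held 24.7 to 47.8 M. Egfr, which encodes the receptor bound by D2C7-IT and whose reads can come from the transgene or the endogenous gene, held 27.0, 46.3 and 35.8 CPM in D2C7-IT tumours, against 15.4, 14.6 and 44.2 CPM in aCD40 tumours. The groups overlapped because aCD40 replicate 3 lay among the D2C7-IT tumours (0.56 ± 0.52, edgeR adjusted p = 0.99). Brain tissue was abundant in every library. The summed level of 13 neuron markers ran from 7110 to 10200 CPM in D2C7-IT tumours and from 8600 to 11200 CPM in aCD40 tumours, and that of 16 cell cycle genes from 171 to 214 CPM and from 60.8 to 276 CPM in the same groups. The share of tumour cells was not measured. On the first principal component of the day 0 libraries, with 28.6% of the variance, aCD40 replicate 3 lay at 42.0, beside D2C7-IT tumours at 48.1, 42.5 and 18.7, and away from aCD40 replicates 1 and 2 at -29.3 and -21.9. Among the list medians quoted below, those that moved by over 1.5 times or turned sign without that tumour are given with and without it. Some lists whose median is not quoted below moved as well. Without that tumour the matrix protease median went from 0.46 to 0.97 and the striatum median from 0.66 to 0.25. The median of glucocorticoid-responsive genes turned from -0.06 to 0.17. The labels name no batch. The counts of the 2 groups were deposited in separate tables, both of which hold the vehicle columns with 0 values that differ.

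At day 0 the lists of neutrophil chemokines, IL-6 family and acute-phase genes and CD40 and NF-kB signalling mostly stood higher after D2C7-IT, and the genes of smallest p lay on both sides. No gene passed the test, so directions below are those of the values. In edgeR 0 of 20735 genes had an adjusted p under 0.05, and the smallest was 0.063, for Mmp3. An unadjusted p under 0.05 was found for 1366 genes (6.59%), 893 of them higher (4.31%) and 473 lower (2.28%) in D2C7-IT tumours. DESeq2, the alternative tool, called 223 genes, 172 higher (0.847% of those it tested) and 51 lower (0.251%). Each of the 223 had an unadjusted edgeR p under 0.05 and no overlap between the groups. Both tools used the same day 0 libraries, so this is not separate evidence for the calls. Across all genes tested, every D2C7-IT library lay above every aCD40 library in 1612 genes (7.77%) and below in 1081 genes (5.21%). These shares are the background for the counts of list members below, where a gene is said to stand above or below if every D2C7-IT tumour lay above or below every aCD40 tumour. The exact permutation test of 3 against 3 tumours cannot give a two-sided p below 0.1.

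Mmp3, a matrix protease induced by inflammation, had the smallest p. It held 7.11, 9.75 and 3.17 CPM in D2C7-IT tumours, against 0.0798, 0.0316 and 0.0900 CPM in aCD40 tumours. Every D2C7-IT tumour was far above all others: combination tumours held 0.456, 0.674 and 0.336 CPM and vehicle tumours 0.0699, 0 and 0 CPM. The fold change was 6.53 ± 0.72 (edgeR adjusted p = 0.063), on 8 counts in the 3 aCD40 libraries together.

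Creb3l1, an endoplasmic reticulum stress sensor and transcription factor, held 16.8, 21.2 and 12.6 CPM in D2C7-IT tumours, against 3.73, 4.96 and 5.26 CPM in aCD40 tumours (1.86 ± 0.27, edgeR adjusted p = 0.091). Lrg1, an acute-phase glycoprotein of vessels, held 21.5, 18.1 and 15.3 CPM against 8.67, 8.56 and 6.21 CPM in the same groups (1.23 ± 0.18, edgeR adjusted p = 0.091). Angptl4, an inhibitor of lipoprotein lipase, held 29.8, 34.4 and 23.2 CPM against 6.86, 7.58 and 5.02 CPM (edgeR adjusted p = 0.13). In these 3 genes the aCD40 tumours also lay above all vehicle tumours, which held at most 3.47, 4.13 and 3.14 CPM.

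Hbegf, a ligand of EGFR, was a gene of the other kind, with aCD40 tumours among the vehicle tumours. It held 37.6, 58.0 and 54.8 CPM after D2C7-IT, against 13.1, 10.9 and 10.9 CPM after aCD40 (2.11 ± 0.30, edgeR adjusted p = 0.091), and vehicle tumours held 15.0, 19.9 and 9.49 CPM. Shisa3, a regulator of growth factor receptors, held 21.5, 11.0 and 5.29 CPM after D2C7-IT, against 1.12, 1.04 and 1.08 CPM after aCD40. The spread among the D2C7-IT tumours was wide here, but none came near an aCD40 tumour.

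These are among the 12 genes of smallest p on the D2C7-IT side (edgeR adjusted p from 0.063 to 0.15), with Ror2 (a Wnt5a receptor), Ampd3 (an AMP deaminase), Efl1 (a GTPase of ribosome assembly), Il1r2 (the decoy receptor of interleukin 1), A3galt2 (a glycolipid synthase) and Ier3 (an immediate early gene). In 12 of the 12 every D2C7-IT tumour lay above every vehicle tumour, against 10.9% of all genes. The genes were chosen for high values in these same D2C7-IT tumours, which favours that count, so the share over all genes is not a like background. The aCD40 tumours overlapped the vehicle tumours in 8 and lay above them in 4. All 12 were called by DESeq2. RefSeq promoter entries were found for 9 of the 12, and 2 of these, Ampd3 and Ror2, held the NF-kB letters.

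**Figure D1:**
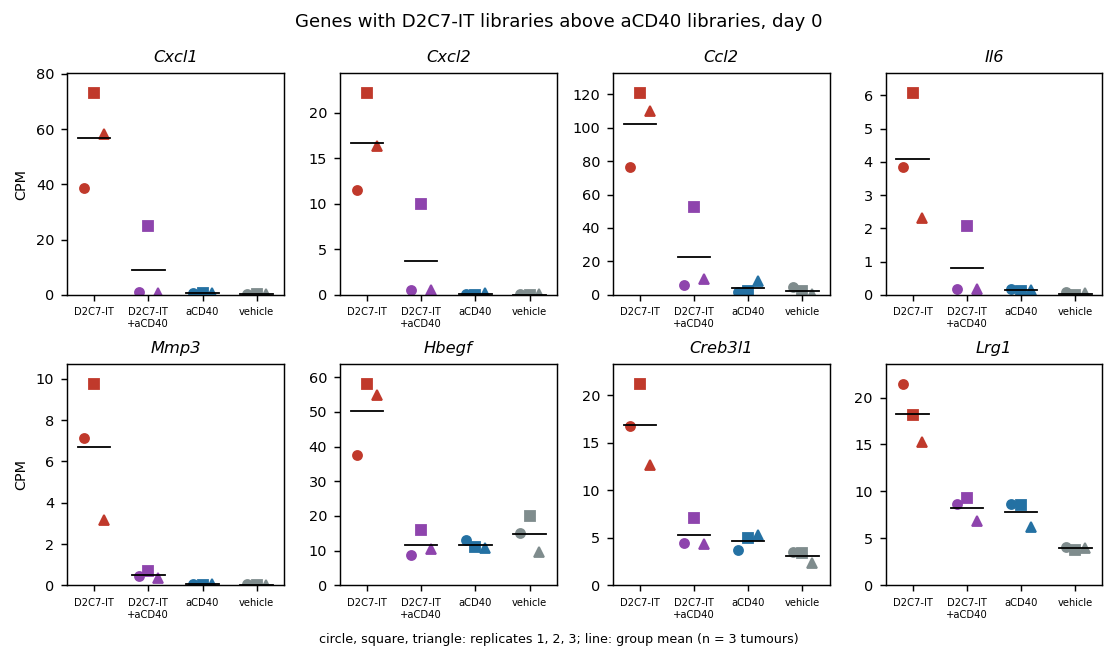
CPM of 8 genes in each day 0 tumour, by group; each point is a tumour and each line a mean of 3, on a linear axis from 0. D2C7-IT tumours stand above all aCD40 tumours in each panel, and combination replicate 2 (square) stands above the other combination tumours in Cxcl1, Cxcl2, Ccl2 and Il6, with 25.0 CPM of Cxcl1.

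Genes that draw in neutrophils had the highest median of the 43 lists, though a higher share of members stood above in others, such as the CD40 and NF-kB list with 16 of 21. In the list of neutrophil chemokines and growth factors, 5 of 9 members tested had every D2C7-IT tumour above every aCD40 tumour and 0 the reverse, with a median log2 fold change of 3.08 (4.07 without aCD40 replicate 3), against -0.02 over all genes. Cxcl1, on chromosome 5 at 90891241 to 90893115, held 38.8, 73.0 and 58.3 CPM in D2C7-IT tumours, against 0.692, 0.505 and 0.495 CPM in aCD40 tumours (6.64 ± 1.31, edgeR adjusted p = 0.25). Cxcl2, its neighbour at 90903871 to 90905938, held 11.5, 22.1 and 16.3 CPM against 0.0798, 0.0316 and 0.157 CPM in the same groups (7.42 ± 1.36, edgeR adjusted p = 0.18). Neither group overlapped the other, and for Cxcl1 the aCD40 tumours lay just above the vehicle tumours, which held 0.373, 0.215 and 0.176 CPM.

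The combination tumours, which share in the estimate of the spread, were far apart: Cxcl1 held 0.912, 25.0 and 0.799 CPM in replicates 1, 2 and 3. In a fit of the 6 libraries alone Cxcl1 (edgeR adjusted p = 0.0086) and Cxcl2 (0.035) passed, and no other gene did. Cxcr2, the receptor of both chemokines on neutrophils, held 1.51, 2.52 and 1.90 CPM in D2C7-IT tumours, against 0.106, 0.190 and 0.0900 CPM in aCD40 tumours (3.94 ± 0.86, edgeR adjusted p = 0.27).

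Neutrophil markers were low and not uniform. Of 12 tested, 5 stood above and 2, the granule genes Ltf and Ngp, below, and their summed level was 21.2 to 26.6 CPM in D2C7-IT tumours, against 8.04 to 21.8 CPM in aCD40 tumours. S100a9, a calcium-binding protein of neutrophils, held 1.89, 2.35 and 2.92 CPM against 0.665, 1.14 and 0.922 CPM in the same groups (1.39 ± 0.43, edgeR adjusted p = 0.44). Ly6g, the defining surface marker, had 2 counts in the D2C7-IT libraries together and 1 in the aCD40 libraries, too few to test.

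Monocyte chemokines followed the same order. Among 12 tested, 7 stood above and 1 below, with a median of 1.51. Ccl2, the main attractant of monocytes, held 76.7, 121 and 110 CPM in D2C7-IT tumours, against 1.92, 2.12 and 7.98 CPM in aCD40 tumours (4.66 ± 1.05, edgeR adjusted p = 0.27). Its receptor Ccr2 held 13.4, 15.3 and 16.9 CPM against 2.13, 1.52 and 7.47 CPM (2.03 ± 0.70, edgeR adjusted p = 0.53). The 1 member on the other side was Ccl8, a chemokine of monocytes and T cells, with 1.82, 1.03 and 0.591 CPM in D2C7-IT tumours and 3.46, 2.91 and 3.55 CPM in aCD40 tumours (-1.52 ± 0.45, edgeR adjusted p = 0.40).

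Cytokines of the IL-6 and IL-1 families lay mostly on the D2C7-IT side. In the IL-6 and acute-phase list 15 of 20 members stood above and 1, the receptor gene Lifr, below (median 1.54, and 2.33 without aCD40 replicate 3), and DESeq2 called 7. Il6 held 3.86, 6.06 and 2.30 CPM in D2C7-IT tumours, against 0.186, 0.126 and 0.157 CPM in aCD40 tumours (4.67 ± 1.01, edgeR adjusted p = 0.27). Lif, a cytokine of that family, held 16.4, 25.5 and 26.9 CPM against 0.585, 0.948 and 2.14 CPM (4.21 ± 0.83, edgeR adjusted p = 0.25). Stat3, the transcription factor through which both signal, held 209, 247 and 223 CPM against 80.0, 77.9 and 126 CPM (1.26 ± 0.26, edgeR adjusted p = 0.25). Each of the 3 genes had clear space between the groups, and in Lif and Stat3 the highest aCD40 tumour was replicate 3.

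In the IL-1 and TNF list 11 of 18 stood above and 1, Il18, below (median 0.56, and 1.14 without aCD40 replicate 3). Il1a held 15.1, 27.7 and 22.7 CPM in D2C7-IT tumours, against 1.14, 1.71 and 4.03 CPM in aCD40 tumours. Il1b held 12.5, 17.3 and 10.3 CPM against 0.958, 0.821 and 2.45 CPM in the same groups. Both encode forms of interleukin 1, which raises chemokines and adhesion molecules in vessels, and for both edgeR's adjusted p was above the threshold (0.27 and 0.34).

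Genes of the pathway that CD40 itself uses also stood higher after D2C7-IT than after the CD40 antibody. In the CD40 and NF-kB list 16 of 21 members stood above and 0 below, with a median of 1.16 (1.44 without aCD40 replicate 3). Cd40 held 6.65, 11.1 and 8.68 CPM in D2C7-IT tumours, against 1.60, 1.26 and 4.77 CPM in aCD40 tumours (1.78 ± 0.64, edgeR adjusted p = 0.57), and vehicle tumours held 1.52, 1.18 and 0.971 CPM. Tnfaip3, the feedback inhibitor A20, held 58.1, 123 and 86.1 CPM against 10.1, 8.81 and 18.7 CPM in D2C7-IT and aCD40 tumours (2.83 ± 0.71, edgeR adjusted p = 0.32). Rela, an NF-kB subunit, held 52.0, 65.8 and 64.5 CPM against 26.2, 29.4 and 38.0 CPM. Set against the same vehicle tumours, 18 of the 21 had every D2C7-IT tumour above every vehicle tumour (10.9% of all genes did). For aCD40 tumours that number was 0 of the 21, which is near the 4.01% of all genes. The fold change of aCD40 over vehicle was positive in 15 of the 21, against 10417 of all 20735 genes.

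Adhesion molecules of activated vessels were part of the same side, with 6 of 14 above and 0 below (median 0.90, and 1.68 without aCD40 replicate 3). Sele, E-selectin, held 9.23, 6.93 and 3.80 CPM in D2C7-IT tumours, against 0.931, 0.253 and 0.540 CPM in aCD40 tumours (3.52 ± 0.81, edgeR adjusted p = 0.27). Icam1, which leukocytes grip as they cross, held 66.6, 151 and 147 CPM against 12.2, 11.1 and 28.5 CPM (2.81 ± 0.80, edgeR adjusted p = 0.38). Reactive astrocyte genes had 9 of 15 above and 0 below (median 1.36, and 2.22 without that tumour). Steap4, a metalloreductase of inflamed tissue, held 125, 138 and 135 CPM in D2C7-IT tumours, against 0.745, 2.46 and 9.40 CPM in aCD40 tumours (4.96 ± 1.17, edgeR adjusted p = 0.28). Among all day 0 tumours its next highest level was 54.5 CPM, in combination replicate 2.

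Type I interferon genes stood higher after D2C7-IT, while interferon-gamma genes were divided when aCD40 replicate 3 was included. In the type I list 13 of 24 stood above and 0 below (median 0.88, and 1.79 without aCD40 replicate 3). Ifnb1, interferon beta itself, had 84 counts in the D2C7-IT libraries and 0 in the aCD40 libraries (edgeR adjusted p = 0.31). The D2C7-IT tumours held 0.55, 1.05 and 0.34 CPM. Against a floor of 3 counts over the group Ifnb1 was at least 26.5-fold higher, a bound that covers counting error only. Mx2, an antiviral GTPase, held 21.7, 35.5 and 26.8 CPM against 3.75, 3.92 and 7.22 CPM in D2C7-IT and aCD40 tumours (2.49 ± 0.63, edgeR adjusted p = 0.32).

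In the interferon-gamma list 3 of 24 stood above and 4 below (median -0.14, and 0.66 without aCD40 replicate 3). Those above were Cxcl10, Cxcl11 and Gbp5, and those below Cxcl9, Gbp4, Irgm2 and Tgtp2. Without aCD40 replicate 3, 14 stood above and 4 below, against 19.0% and 13.5% of all genes. Cxcl10, a T cell chemokine that type I interferon also induces, held 118, 141 and 109 CPM in D2C7-IT tumours, against 11.2, 7.23 and 51.5 CPM in aCD40 tumours. Cxcl9, a ligand of the same receptor that depends on interferon gamma, held 2.47, 2.10 and 2.58 CPM against 2.93, 4.80 and 22.8 CPM. Gbp4, a guanylate-binding protein with near-identical family members, held 12.96, 18.0 and 15.5 CPM against 26.7, 35.1 and 63.9 CPM (-1.44 ± 0.47, edgeR adjusted p = 0.48). Ifng did not pass the filter on low counts, with 6 counts in the D2C7-IT libraries and 38 in the aCD40 libraries, 29 of these in 1 library.

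**Figure D2:**
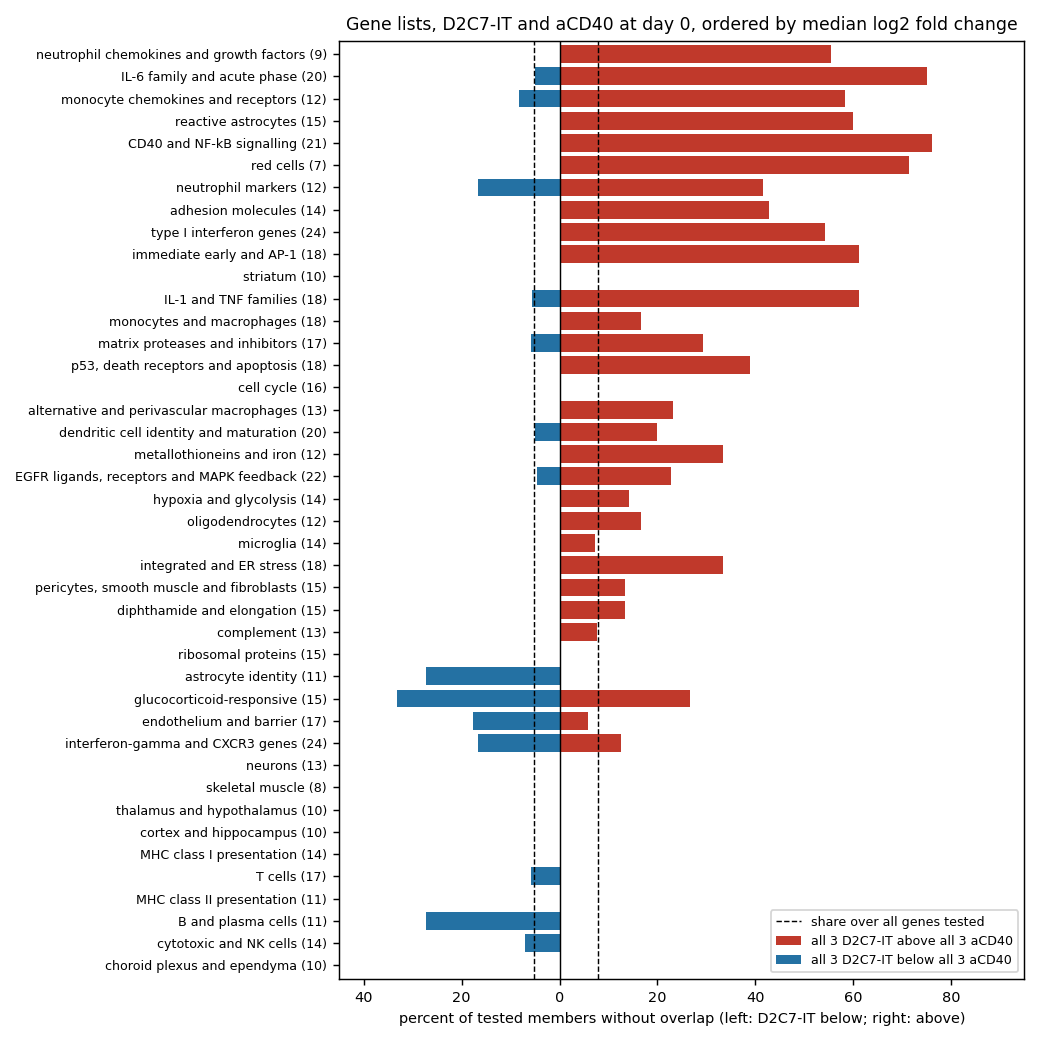
Percent of each list's tested members (number in brackets) in which every D2C7-IT tumour lay above (red, right) or below (blue, left) every aCD40 tumour, ordered by median log2 fold change; dashed lines mark 7.77% and 5.21%, the shares over all genes. The NF-kB list reaches 16 of 21 on the right, and the MHC lists have no bar.

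Immediate early genes, which cells switch on soon after a signal, and stress genes were also on the D2C7-IT side in part. Of 18 immediate early and AP-1 genes, 11 stood above and 0 below (median 0.82). Maff, a small Maf factor, held 24.1, 49.1 and 37.7 CPM in D2C7-IT tumours, against 2.93, 4.23 and 5.51 CPM in aCD40 tumours. Of 18 integrated stress and endoplasmic reticulum stress genes, 6 stood above and 0 below, but the median was 0.08 (0.13 without aCD40 replicate 3). Ppp1r15a, which restarts translation after stress, held 38.8, 68.3 and 53.7 CPM against 12.2, 14.7 and 12.9 CPM (2.02 ± 0.42, edgeR adjusted p = 0.27). Ddit3, the factor CHOP, held 37.3, 39.4 and 44.1 CPM against 27.3, 27.7 and 26.9 CPM (0.56 ± 0.13, edgeR adjusted p = 0.27), a small difference with tight groups.

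Death receptors stood with them. In the list of p53 targets, death receptors and apoptosis genes 7 of 18 stood above and 0 below (median 0.45, and 0.76 without aCD40 replicate 3). Fas, a death receptor, held 16.2, 23.8 and 19.7 CPM in D2C7-IT tumours, against 3.46, 3.79 and 5.76 CPM in aCD40 tumours (2.20 ± 0.46, edgeR adjusted p = 0.27). Tnfrsf12a, the receptor of TWEAK, held 28.2, 37.9 and 37.8 CPM against 4.82, 6.51 and 10.4 CPM (2.25 ± 0.55, edgeR adjusted p = 0.30).

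The toxin's own target machinery showed small differences. The list of diphthamide enzymes and elongation factors had 2 of 15 above and 0 below (median 0.02, and 0.03 without aCD40 replicate 3). Eef2 held 1351, 1160 and 1177 CPM in D2C7-IT tumours, against 1253, 1342 and 1352 CPM in aCD40 tumours (-0.10 ± 0.12, edgeR adjusted p = 1). Dph5, an enzyme of diphthamide synthesis, held 10.0, 12.6 and 10.3 CPM against 8.62, 7.36 and 8.34 CPM (0.44 ± 0.17, edgeR adjusted p = 0.63). RNA levels say nothing of the toxin's modification of the protein.

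In the list of EGFR ligands, receptors and feedback genes 5 of 22 stood above and 1, the feedback inhibitor Errfi1, below (median 0.15). Beside Hbegf, Ereg (epiregulin) had 190 counts in the D2C7-IT libraries and 0 in the aCD40 libraries (edgeR adjusted p = 0.25). The D2C7-IT tumours held 1.44, 1.44 and 1.96 CPM. Against a floor of 3 counts over the group Ereg was at least 59.8-fold higher, a bound that covers counting error only. Phlda1, a feedback gene, held 47.1, 63.5 and 47.0 CPM against 37.9, 25.9 and 21.7 CPM in D2C7-IT and aCD40 tumours (0.88 ± 0.22, edgeR adjusted p = 0.32).

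On the aCD40 side the immune gene that stood out was Ccl22, a chemokine of mature dendritic cells that attracts regulatory T cells. It held 1.08, 1.96 and 2.92 CPM in D2C7-IT tumours, against 7.08, 4.80 and 15.4 CPM in aCD40 tumours (-2.20 ± 0.49, edgeR adjusted p = 0.27). No D2C7-IT tumour reached the lowest aCD40 tumour. Combination tumours held 4.32, 7.02 and 7.15 CPM and vehicle tumours 0.909, 0.483 and 0.530 CPM, so both single agents lay above vehicle. In the dendritic cell list of 20 genes Ccl22 was the 1 below, and 4 stood above, Il12b, Cd209a, Cd70 and Clec9a (median 0.35, and 0.68 without aCD40 replicate 3). Il12b, a subunit of interleukin 12, held 4.21, 7.77 and 3.02 CPM against 0.293, 0.695 and 2.61 CPM in D2C7-IT and aCD40 tumours (2.05 ± 0.91, edgeR adjusted p = 0.75).

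The genes of smallest p on the aCD40 side were of another kind, with small and regular differences. Cyp2d22, a cytochrome P450, held 20.1, 17.4 and 20.6 CPM in D2C7-IT tumours, against 35.7, 37.1 and 31.1 CPM in aCD40 tumours (-0.84 ± 0.10, edgeR adjusted p = 0.075). Vehicle tumours held 24.5, 26.3 and 28.0 CPM and lay between the groups. Prodh, proline dehydrogenase, held 23.6, 19.7 and 22.1 CPM against 42.1, 37.9 and 35.4 CPM (-0.82 ± 0.11, edgeR adjusted p = 0.091), with vehicle tumours at 31.2, 34.3 and 38.0 CPM.

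Fam107a, an actin-binding protein abundant in astrocytes, held 220, 233 and 340 CPM in D2C7-IT tumours, against 494, 634 and 611 CPM in aCD40 tumours (-1.13 ± 0.18, edgeR adjusted p = 0.11). Slco1a4, an organic anion transporter of brain vessels, held 40.5, 38.3 and 41.8 CPM against 53.6, 57.6 and 53.1 CPM (-0.45 ± 0.10, edgeR adjusted p = 0.27). Hif3a, a subunit of the hypoxia-inducible factors, held 9.15, 5.94 and 6.81 CPM against 16.1, 18.5 and 17.3 CPM (-1.25 ± 0.27, edgeR adjusted p = 0.27).

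The other leading genes on that side were Nwd1, Htra1 (a secreted protease), Eva1a (a regulator of autophagy), Scrg1, Sult1a1 (a sulfotransferase), Arhgef19 and Cldn10 (a claudin). Over these 12 genes edgeR's adjusted p ran from 0.075 to 0.27, and DESeq2 called 12. In 10 of them every D2C7-IT tumour lay below every vehicle tumour, against 6.61% of all genes. The aCD40 tumours lay above all vehicle tumours in 6 (4.01% of all genes) and overlapped them in 6. Here too the choice of genes, made on these same tumours, favours the counts over the shares of all genes. Promoter entries were found for 10, and 2 of these, Arhgef19 and Fam107a, held the NF-kB letters.

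**Figure D3:**
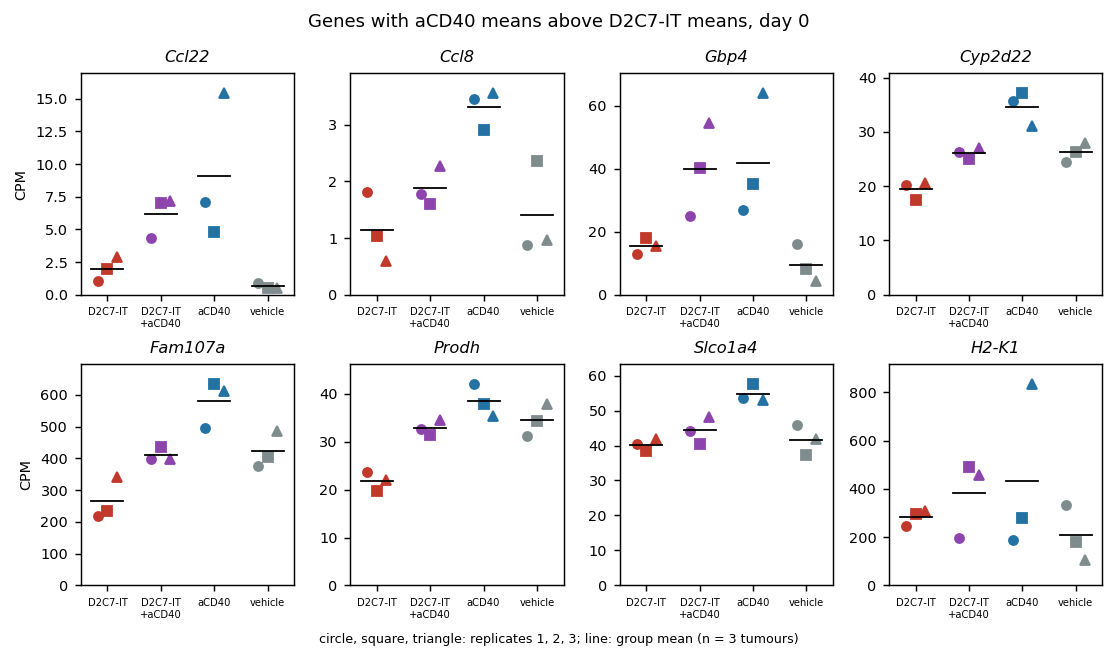
CPM of 8 genes in each day 0 tumour, by group, with points for tumours and lines for means of 3, on linear axes from 0. aCD40 tumours stand above every D2C7-IT tumour in all panels except H2-K1, where only aCD40 replicate 3 (triangle) at 835 CPM does.

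Some vessel and astrocyte genes stood lower after D2C7-IT than after aCD40. In the endothelial list 1 of 17 stood above, Angpt2, and 3 below, Abcb1a, Flt1 and Slco1a4 (median -0.10). Without aCD40 replicate 3, 9 stood below, against 13.5% of all genes. Set against vehicle, 11 of the 17 had every aCD40 tumour above every vehicle tumour (4.01% of all genes did). For D2C7-IT tumours that number was 10 (10.9%). Abcb1a, a drug efflux pump of the blood-brain barrier, held 37.2, 35.8 and 43.1 CPM in D2C7-IT tumours, against 57.6, 54.8 and 48.1 CPM in aCD40 tumours (-0.47 ± 0.13, edgeR adjusted p = 0.35). Over vehicle, Abcb1a stood at 0.12 ± 0.13 after D2C7-IT and 0.58 ± 0.13 after aCD40. The same values were -0.05 ± 0.10 and 0.40 ± 0.10 for Slco1a4, and -0.17 ± 0.12 and 0.20 ± 0.12 for Flt1. In the astrocyte identity list 0 of 11 stood above and 3, Aldoc, Gjb6 and Slc1a2, below (median -0.06, and -0.10 without aCD40 replicate 3). The list was not uniform, as 4 of the 11, Aqp4 among them, had a positive fold change. Without aCD40 replicate 3, 2 stood above and 4 below, against 19.0% and 13.5% of all genes. Slc1a2, the main glutamate transporter, held 1193, 1473 and 1752 CPM against 2413, 2072 and 1870 CPM (-0.52 ± 0.22, edgeR adjusted p = 0.70).

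Genes that respond to glucocorticoids stood on both sides, 4 of 15 above and 5 below. Those below were Ddit4, Errfi1, Sgk1, Sult1a1 and Tsc22d3. Sgk1, a kinase of ion transport, held 78.0, 93.4 and 76.4 CPM in D2C7-IT tumours, against 107, 156 and 148 CPM in aCD40 tumours (-0.73 ± 0.20, edgeR adjusted p = 0.34). Those above were Angptl4, Cdkn1a, Mt2 and Nfkbia, of which Nfkbia is also a member of the NF-kB list.

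Red cell genes had 5 of 7 above and 0 below (median 1.11). Hba-a1, one of the alpha globin pair whose reads are hard to assign, held 6.91, 12.3 and 9.46 CPM in D2C7-IT tumours, against 3.43, 2.84 and 4.003 CPM in aCD40 tumours (1.48 ± 0.47, edgeR adjusted p = 0.47). Vehicle tumours held 7.53, 11.8 and 32.7 CPM, so it was the aCD40 tumours that lay below all vehicle tumours. Blood in the tissue was not measured.

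Antigen presentation and lymphocyte genes had lower means in D2C7-IT tumours, but that order rested on aCD40 replicate 3. In the MHC class I list 0 of 14 and in the class II list 0 of 11 had groups without overlap, with medians of -0.43 and -0.47. Without aCD40 replicate 3 the medians were 0.31 and 0.63. H2-K1, a class I gene with near-identical copies, held 248, 294 and 309 CPM in D2C7-IT tumours, against 187, 280 and 835 CPM in aCD40 tumours. Cd274, whose product PD-L1 restrains T cells, held 15.1, 18.5 and 17.2 CPM against 7.32, 13.6 and 49.3 CPM (-0.47 ± 0.71, edgeR adjusted p = 1). Leaving out replicate 3 gave fold changes of 0.26 for H2-K1 and 0.68 for Cd274.

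The T cell list had a median of -0.45 (0.57 without aCD40 replicate 3), and the cytotoxic and NK cell list one of -0.55 (0.55 without it). Cd8a, of cytotoxic T cells, held 1.84, 1.65 and 1.06 CPM in D2C7-IT tumours, against 0.559, 2.12 and 6.37 CPM in aCD40 tumours. Gzmb, the granzyme B gene of cytotoxic lymphocytes, held 1.66, 1.53 and 0.778 CPM against 1.06, 1.58 and 7.78 CPM. In both genes the groups overlapped, with replicate 3 far above the others; without it the fold change of Gzmb was -0.009.

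Of 17 T cell genes 1, Lag3, stood below, and of 14 cytotoxic and NK cell genes 1, Gzma, shares near the 5.21% of all genes. Lag3, a checkpoint receptor that neurons also express, held 11.7, 11.9 and 13.5 CPM in D2C7-IT tumours, against 16.1, 19.1 and 20.3 CPM in aCD40 tumours (-0.58 ± 0.15, edgeR adjusted p = 0.33). Gzma, another killer cell protease, held 0.630, 0.536 and 0.436 CPM against 0.825, 0.948 and 4.59 CPM (-1.99 ± 0.76, edgeR adjusted p = 0.63). Of 11 B and plasma cell genes 3 stood below and 0 above, but the median turned from -0.47 with aCD40 replicate 3 to 0.38 without it. Cd79a, a part of the B cell receptor, held 0.681, 0.618 and 0.436 CPM against 0.851, 0.885 and 1.53 CPM.

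**Figure D4:**
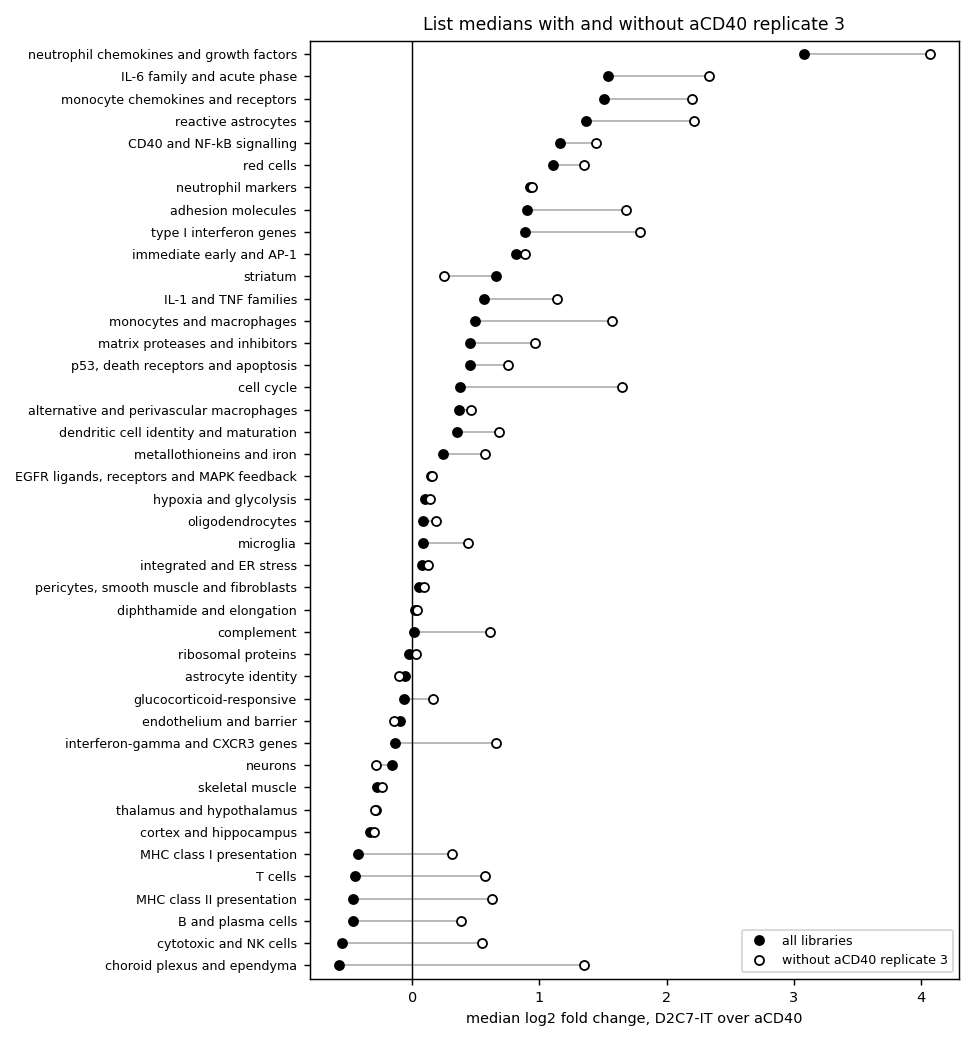
Median log2 fold change of each list, D2C7-IT over aCD40, from all libraries (filled) and without aCD40 replicate 3 (open). The MHC class I median is -0.43 with that tumour and 0.31 without it, while the neutrophil chemokine median is above 3 both ways.

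In the macrophage list the mean log2 CPM was 3.66, 4.07 and 4.25 in D2C7-IT tumours, against 2.18, 2.43 and 4.41 in aCD40 tumours, so that replicate 3 lay above all D2C7-IT tumours, as it did in the complement list. Monocyte and macrophage genes had 3 of 18 above and 0 below with a median of 0.49, and 15 above with a median of 1.57 without that tumour. Complement genes had 1 of 13 above with a median of 0.01, and 10 above with a median of 0.61 without it. Microglia genes had 1 of 14 above with a median of 0.08, and 7 above with a median of 0.43 without it. Over all genes 19.0% stood above when aCD40 replicate 3 was left out. Arg1, an arginase of suppressive macrophages, held 5.42, 24.8 and 24.5 CPM in D2C7-IT tumours, against 0.160, 3.41 and 6.77 CPM in aCD40 tumours, where replicate 3 alone overlapped the D2C7-IT tumours. Of the remaining lists, 3 of 13 perivascular macrophage genes, 4 of 12 metallothionein and iron genes, 2 of 14 hypoxia genes, 2 of 12 oligodendrocyte genes and 2 of 15 pericyte and fibroblast genes stood above and 0 below. Matrix proteases and inhibitors had 5 of 17 above and 1, Timp4, below. Only 2 of 9 mast cell genes could be tested, and both overlapped. In the neuron list, the 3 lists of brain regions, and the choroid plexus, cell cycle, ribosomal protein and skeletal muscle lists, 0 members had groups without overlap. The cell cycle median was 0.38 (1.65 without aCD40 replicate 3) and that of choroid plexus and ependyma -0.58 (1.35 without it). Region genes varied widely within groups: Drd1, a dopamine receptor of the striatum, held 60.6, 151 and 33.5 CPM in D2C7-IT tumours and 104, 11.4 and 15.2 CPM in aCD40 tumours. How much the piece of brain taken with each tumour contributes was not tested.

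Against vehicle, each agent changed few genes by the main test. After D2C7-IT 10 genes passed (0.0482% of those tested), all higher: Lrg1, Creb3l1, Mmp3, Angptl4, Vwf, Ror2, Gm10309, Selp, Ifitm1 and Tmem252. After aCD40 1 gene passed (0.00482%), Ly6a, which encodes the surface antigen Sca-1 of vessel and stem cells. The comparisons share the vehicle tumours, so values are set side by side.

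Ly6a held 69.4, 62.5 and 62.2 CPM in D2C7-IT tumours, 85.4, 96.6 and 97.3 CPM in aCD40 tumours and 34.8, 39.4 and 26.3 CPM in vehicle tumours. It rose after aCD40 (aCD40 over vehicle 1.47 ± 0.16, edgeR adjusted p = 0.038), and stood at 0.95 ± 0.15 for D2C7-IT over vehicle (edgeR adjusted p = 0.075). Vwf, von Willebrand factor of endothelium and platelets, rose after D2C7-IT (D2C7-IT over vehicle 1.55 ± 0.18, edgeR adjusted p = 0.021) and stood at 1.38 ± 0.18 for aCD40 over vehicle (edgeR adjusted p = 0.12). Its levels were 126, 115 and 129 CPM in D2C7-IT tumours and 110, 122 and 99.2 CPM in aCD40 tumours, which overlapped (0.16 ± 0.18). It was called for D2C7-IT only, and the difference between the agents was not called (edgeR adjusted p = 1).

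Selp, P-selectin, rose after D2C7-IT as well (D2C7-IT over vehicle 6.01 ± 0.81, edgeR adjusted p = 0.042). It held 17.6, 16.1 and 8.40 CPM in D2C7-IT tumours, 2.13, 1.96 and 1.46 CPM in aCD40 tumours and 0.396, 0.188 and 0 CPM in vehicle tumours. The groups stood in 3 steps without overlap. Between the agents the fold change was 2.92 ± 0.67 (edgeR adjusted p = 0.27).

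**Figure D5:**
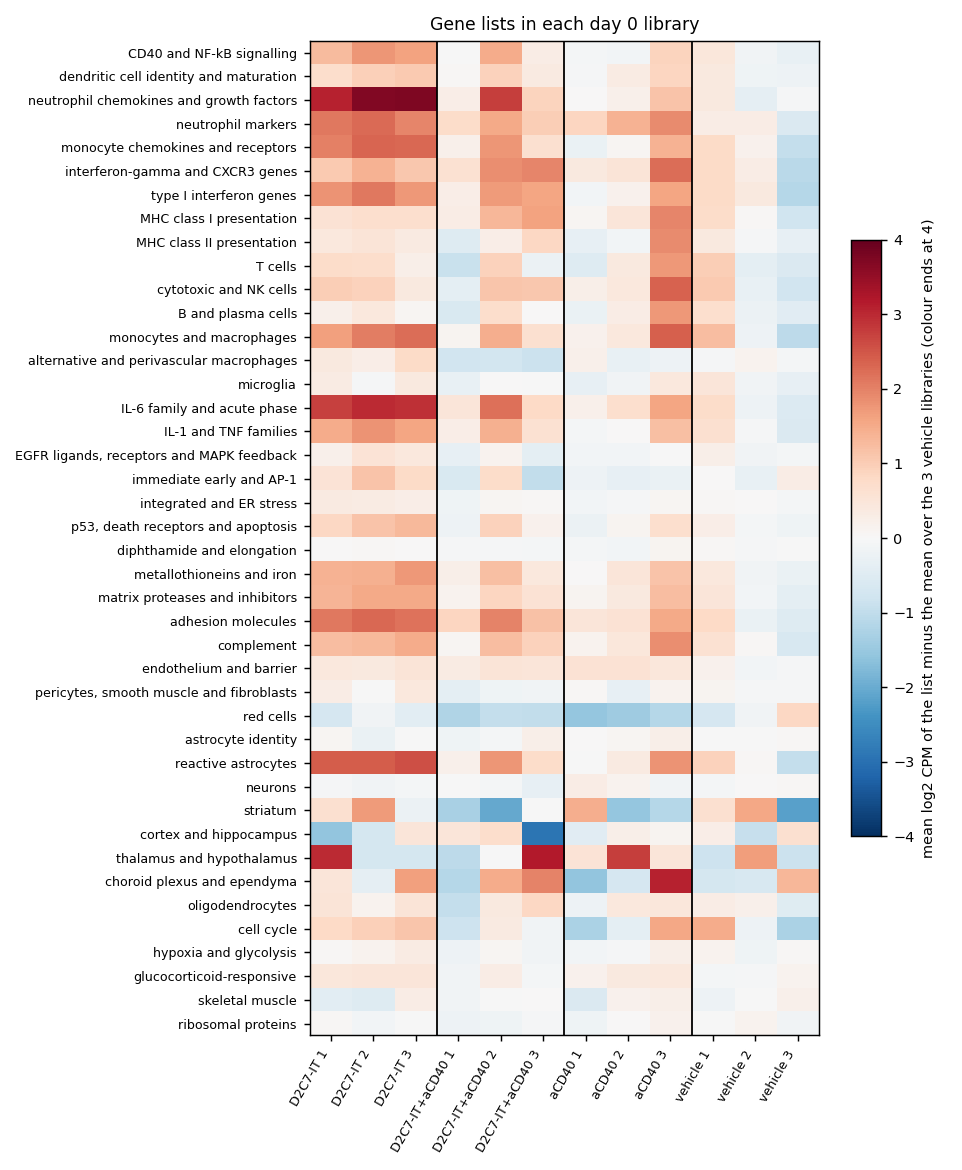
Mean log2 CPM of each list in each day 0 tumour, less its mean over the 3 vehicle tumours (red above, blue below; colour ends at 4). The D2C7-IT columns are red together in the chemokine, IL-6 and reactive astrocyte lists, while in the MHC and lymphocyte lists aCD40 replicate 3 is redder than aCD40 replicates 1 and 2.

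In 3 of the 12 leading genes on the D2C7-IT side and 7 of the 12 on the aCD40 side, all combination tumours lay between the 2 single agents. Cyp2d22 was one, with 26.3, 25.0 and 27.1 CPM in combination tumours. Among all genes without overlap on those sides the shares were 1.49% and 1.57%. These are not a like background, because the leading genes were chosen by p from a fit whose spread includes the combination tumours. On the D2C7-IT side every combination tumour lay below every D2C7-IT tumour in 12 of the 12 leading genes. On the aCD40 side every combination tumour lay above every D2C7-IT tumour in 9 of the 12. The choice of genes favours these counts as well, and their shares over all genes were not computed. In chemokine and adhesion genes the combination tumours were far apart. Replicate 2 carried D2C7-IT-side genes at higher levels than the other 2, with 52.5 CPM of Ccl2 and 116 CPM of Icam1, against 5.66 and 9.69 CPM of Ccl2 and 13.6 and 28.7 CPM of Icam1 in replicates 1 and 3. On the aCD40 side all combination tumours lay above all D2C7-IT tumours for Ccl22 and Gbp4, and for Gbp4 they held 25.1, 40.2 and 54.4 CPM.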

How the data were processed

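Polyadenylated RNA was sequenced from flash-frozen tissue with the NEBNext Ultra kit, which does not mark strand, per the labels' protocols. The authors deposited whole-number counts per Ensembl gene that were not normalized, in 6 tables of 36 columns and 49315 genes, of which 12 columns repeat another with 0 values that differ. Per the submitters' processing notes, the tools were Trimmomatic 0.36, bcl2fastq 2.17, featureCounts (Subread 1.5.2) and STAR 2.5.2b, on GRCm38. No source used here states the annotation release or the strand setting. Genes that overlap on the other strand, or have near-identical copies (globin, H2 and Gbp families), are uncertain. For 49056 of the genes, GENCODE M21 gave symbols and positions.

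The test was that of edgeR 4.0.16 in R 4.3.3 (filterByExpr at a minimum count of 10, leaving 20735 genes; TMM; robust quasi-likelihood F test), with 1 mean per group over the 12 day 0 libraries, 8 residual degrees of freedom and a common coefficient of biological variation of 0.31. The p-values were Benjamini-Hochberg adjusted over all genes tested, with a threshold of 0.05. The labels call the 3 tumours of a group separate samples, and p-values rest on the spread between them. Alternatives were all 24 libraries, the 6 compared, DESeq2 1.42.0 or its size factors, no filter, the replicate number as a block, and each replicate left out. On simulated counts for D2C7-IT against aCD40 (20735 genes, 50 changed at each size) the test called 50% of 2-fold, 82% of 4-fold, 94% of 8-fold and 98% of 16-fold changes, with 7 false calls. The changed genes were drawn at random among those with a mean of at least 1 CPM, and all groups otherwise shared 1 mean per gene. These rates cover genes of differing spread and need not hold for a gene such as Cxcl1, whose combination tumours were far apart.

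Genes named are the 12 of smallest p in each direction without overlap, with a mean of at least 1 CPM in the higher group and no predicted or clone name; from each of 43 lists, the 3 members of smallest p at most (620 symbols, 590 tested); Ifng, Gzmb, Cd8a, Cd274, Eef2, Cd40 and Egfr; and the genes called against vehicle. Il6, Cxcl9, Ly6g, Vwf, Selp, Ly6a and list members given by name alone were chosen after their values were seen. The members and lists were chosen with earlier results of these data known. Lists were described by counts and medians only. Bounds against 3 counts cover counting error only.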

Additional observations from a re-analysis of the deposited data

How the results depend on the processing

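For D2C7-IT against aCD40 edgeR called 0 genes also with all 24 libraries, with DESeq2 size factors and with the replicate block; it called 2 with the 6 libraries compared and 1 without the filter, DESeq2 called 223, and leaving out a replicate gave 0 to 1. Without aCD40 replicate 3, 2105 genes had an unadjusted p under 0.05, against 1366 with it. For D2C7-IT against vehicle the 10 calls became 18 with all 24 libraries, 87 with the 6 compared, 367 in DESeq2, 4 with the replicate block and 0 to 7 without a replicate. For aCD40 against vehicle the 1 call became 0 with all 24 libraries, with the 6 compared and with the replicate block, 40 in DESeq2, and 0 to 1 without a replicate. The replicate numbers showed no clear pairing of the tumours. Same-numbered D2C7-IT and aCD40 tumours had correlations of deviations of 0.063, -0.325 and 0.199, and differently numbered ones had -0.276 to 0.297. With 3 tumours a group, these values cannot show whether tumours were paired. Which spread is pooled differs between these settings; the cause was not tested further.

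Some fold changes of D2C7-IT over aCD40, none of them called, turned sign when a replicate was left out. The upper ends of the following ranges are those without aCD40 replicate 3. They ran from -1.05 to 0.062 for H2-T23, -1.24 to 0.17 for Psmb9, -0.97 to 0.26 for H2-K1, -1.42 to 0.33 for Cd74, -1.33 to 0.69 for H2-Aa, -1.16 to 0.63 for H2-Eb1, -1.48 to 0.17 for Cd8a, -0.70 to 0.27 for Prkcd, -2.24 to 0.52 for Ccdc153, -2.12 to 1.49 for Tmem212, -2.37 to 2.62 for Aqp1, -0.37 to 0.20 for Rplp0 and -0.89 to 0.68 for Cd274. Leaving out D2C7-IT replicate 2 turned Ppp1r1b (-0.048 to 2.06 over the replicates left out), Bcl11b (-0.19 to 0.87) and Mylpf (-0.54 to 0.024), and leaving out aCD40 replicate 1 turned Kit (-0.26 to 0.10). Hdc was 0.060 with the replicate block. The cause was not tested. Genes with a few counts a library, such as Ifng and Ly6g, are limited by depth.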
